A study of Mus musculus with 4 samples.

Results

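Memory and effector CD8 T cells of mouse adipose tissue were taken here as cells that carried CD3 and CD8 transcripts together with Ccl5, a chemokine gene that antigen-experienced CD8 T cells keep switched on. A member was a barcode with 200 or more genes and no more than 25% mitochondrial UMIs (unique molecular identifiers, 1 per captured transcript), at least 2 UMIs over Cd3e, Cd3d and Cd3g, at least 1 UMI over Cd8a and Cd8b1, none of Cd4 or Cd79a, and at least 3 of Ccl5. The rule found 120 members among 4136 kept cells and 738 CD8 T cells of all Ccl5 levels. Members were thus selected on the measured Ccl5, CD3, CD8, Cd4 and Cd79a UMIs, and the values of these genes are given as a description.

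The study loaded 1 library per group from subcutaneous (SC) and visceral intraperitoneal (IP) adipose tissue of WT and KO mice. WT mice were Tie2e-cre; TERT+/+; mTmG and KO mice were Tie2e-cre; TERTfl/fl; mTmG. All were males of 7 months that had spent 5 months on high-fat diet, so WT mice carried the recombinase, the reporter and the diet as well. Tie2e-cre is driven by Tie2 regulatory sequence, which marks endothelium and is also known to act in blood-forming cells, and mTmG switches from tdTomato to GFP where the recombinase has acted. How many mice stood behind a library is not given in the sources used here, and the labels name both cells and nuclei. With 1 library a group, no difference can be weighed against variation among mice, so none is tested, and every interval below is an exact 95% interval for counting error alone. Intervals of gene levels and gene ratios take each UMI as independent, so they leave out the spread between cells as well.

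CD8 T cells leave the thymus as naive cells that recirculate through lymph nodes with the help of the homing receptor Ccr7. After meeting antigen they turn into effector cells, which carry granzymes and perforin, and into memory cells, which are maintained by the T-box factors Eomes and Tbx21 (T-bet) and react quickly to IL-15, IL-18 and IL-12. In obese visceral fat, CD8 T cells are known to gather among macrophages, and those that are stimulated for long display checkpoint receptors such as PD-1.

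WT SC held 25 members, KO SC 50, WT IP 22 and KO IP 23. The libraries had 971, 1969, 675 and 521 kept cells in that order and 10015201 to 15533961 UMIs. The median member held 12419 UMIs in WT and 10968.5 in KO of SC, and 6887.5 in WT and 6446 in KO of IP, so SC members were read more deeply. Shares of members with a UMI were for that reason taken after each cell was thinned to 2000 UMIs, which left out 1 member of WT SC. KO SC and WT IP shared 93 cell barcodes, all kept in both, with a median of 601 UMIs in KO SC and 35392 in WT IP, and none of them was a member. Scrublet, a doublet caller, marked 1 member of KO SC and 1 of KO IP.

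A pair of KO IP members stood apart. One held 107406 UMIs over 8127 genes, which was 39.1% of all member UMIs of that library, and all 109 Mki67 UMIs of KO IP. The other held 23526 UMIs, of which 514 came from the stromal markers Dcn, Col1a1, Col3a1, Pdgfra and Lum. Comparisons with KO IP therefore use all 23 members, and values are given again for the 21 members left without this pair where they moved most. The pair was chosen after the values were seen.

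The label was set beside its markers. Cd8a is part of the rule, so its presence in 98 of 120 members is no check of the label. Eomes was seen in 54 and Cxcr3, a receptor that guides T cells to inflamed tissue, in 45, each a minority of all members. By library, Eomes was seen in 13 of 25 members in WT SC and 19 of 50 in KO SC. In IP it was seen in 16 of 22 in WT and 6 of 23 in KO. After thinning its shares were 16.7%, 10.0%, 31.8% and 8.70% in that order, and the WT and KO intervals overlapped in both depots. Nkg7, a cytotoxic granule protein, was seen in 117 members, Il2rb, the IL-2 and IL-15 receptor chain of memory cells, in 103 and Cd44, a memory marker, in 74. Nkg7 and Il2rb were also seen in 20 and 16 of the 22 CD8 T cells with 1 or 2 Ccl5 UMIs, so they are not particular to members. The markers of memory cells outside the rule were thus present in part of the members, and the effector genes were not general. Gzmk was seen in 36 members, Gzmb in 27 and Gzma in 14, and Klrg1, a marker of terminal effectors, in 11. Ccr7 was seen in 58 members. The rule therefore also gathered cells with this homing receptor, 12 of 25 in WT and 39 of 50 in KO in SC, and 7 of 22 in WT and 0 of 23 in KO in IP, where a count of 0 allows a share of up to 13.0%. These counts are at full depth, and after thinning the SC shares were 29.2% in WT and 30% in KO.

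Most other lineages were near 0 in the members, while a few red cell and B cell UMIs were spread over many of them. Foxp3, the regulatory T cell factor, had no UMI, and the B cell gene Ms4a1 had none. The endothelial markers Cdh5, Kdr and Cldn5 were at 0 in all 4 libraries, and the list's 7 to 27 UMIs were all Pecam1, which T cells also use. Stromal markers came to 2, 3 and 10 UMIs in WT SC, KO SC and WT IP and to 522 in KO IP. Macrophage markers summed to 1 to 4 UMIs a library with Adgre1, C1qa and Csf1r at 0, neutrophil markers to at most 1 and dendritic markers to at most 1. B cell markers summed to 14 to 36 UMIs, red cell markers, which free RNA of lysed blood cells can give, to 26 to 47, and NK markers to 4 to 10, with Ncr1 at 0 except in WT IP. A red cell UMI was seen in 20 of 25 members of WT SC, 22 of 50 of KO SC, 20 of 22 of WT IP and 18 of 23 of KO IP. A B cell marker UMI was seen in 10, 23, 7 and 7 members in that order. Ikzf2, which is shared by regulatory T cells, came to 70 to 164 UMIs. A UMI of the γδ T cell constant genes was found in 5 members of WT and 6 of KO of SC, and 7 of WT and 4 of KO of IP. The part of these markers in the results was not tested, apart from the values without such members given beside the genes that they move.

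Tert, the targeted gene (GRCm38 chromosome 13, 73626911 to 73649843, plus strand, protein coding), had 0 UMIs in the members of all 4 libraries. Its state in the KO members could not be read at this depth.

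The share of members was taken among kept cells and among CD8 T cells. Of kept cells they were 2.57% (1.67 to 3.78) in WT and 2.54% (1.89 to 3.33) in KO of SC, and 3.26% (2.05 to 4.89) in WT and 4.41% (2.82 to 6.55) in KO of IP. Of CD8 T cells they were 13.7% (9.04 to 19.5) in WT SC and 10.2% (7.67 to 13.2) in KO SC, against 57.9% (40.8 to 73.7) in WT IP and 85.2% (66.3 to 95.8) in KO IP. The IP and SC intervals of this share do not overlap in either genotype, and the WT and KO intervals overlap in both depots. As a log2 ratio, the share of CD8 T cells was higher in IP than in SC by 2.08 (1.19 to 2.97) in WT and by 3.06 (2.28 to 3.80) in KO.

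The denominators moved in the other direction. CD8 T cells of every Ccl5 level were 18.8% of kept cells in WT SC and 24.9% in KO SC, and 5.63% in WT IP and 5.18% in KO IP. A KO to WT difference in the members' share of kept cells was not detectable at this depth, with log2 ratios of -0.02 (-0.74 to 0.73) in SC and 0.44 (-0.47 to 1.35) in IP. The IP to SC log2 ratio of that share was 0.34 (-0.56 to 1.23) in WT and 0.80 (0.018 to 1.54) in KO. With all T cells as the base, members were 5.56% in WT and 4.33% in KO of SC, and 17.3% in WT and 18.7% in KO of IP. Without the barcodes shared between libraries, the share of kept cells was 2.67% of 1876 cells in KO SC and 3.78% of 582 in WT IP. Whether more members or fewer other cells set a share cannot be told apart.

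**Figure D1:**
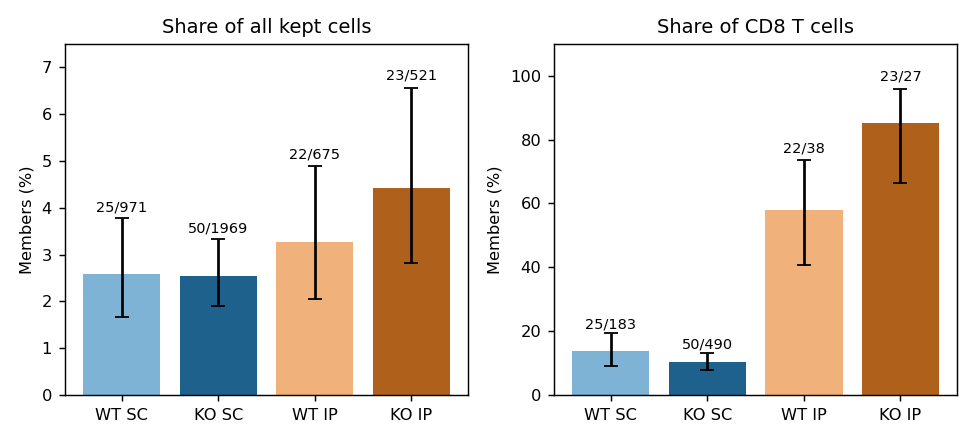
Members as a percent of kept cells and as a percent of CD8 T cells in the 4 libraries, as bars with exact 95% binomial intervals for counting error and the cell counts above them. Members are 2.54% to 4.41% of kept cells throughout, while of CD8 T cells they are 10.2% and 13.7% in SC and 57.9% and 85.2% in IP.

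The threshold on Ccl5 (chromosome 11, 83525778 to 83530518, minus strand) sat between a large empty group and a high one. The median member held 50 Ccl5 UMIs in WT and 45 in KO of SC, and 65 in WT and 87 in KO of IP, and the highest held 171 to 271. Only 22 CD8 T cells held 1 or 2 UMIs, and 7 members held 3 or 4. Just inside the threshold, Nkg7 was at 446 CPM (UMIs of a gene scaled to a fixed total), Tbx21 at 92.2 and Cxcr3 at 61.5, and just outside at 352, 46.4 and 7.73. By cells, Nkg7 was seen in 6 of 7 inside and 20 of 22 outside. Tbx21 was seen in 2 of 7 and 7 of 22, and Cxcr3 in 2 of 7 and 2 of 22, so few cells set these levels. The naive genes showed no clear split either, with Ccr7 at 338 CPM inside and 468 outside and Lef1 at 1214 inside and 1040 outside, each seen in 6 of the 7 members. B cells with a Ccl5 UMI were 0 to 4.76% a library and held no more than 1 UMI each.

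Compared with the other CD8 T cells of the same library (158 cells for WT SC, 440 for KO SC, 16 for WT IP), the members had higher levels of several chemokine, lectin receptor and cytotoxic genes and of Tbx21. This describes genes of the cells that the rule split and is no test. Beside Ccl5, the genes higher in members of all 3 libraries were Gzma and Serpinb9, a granzyme (in 1, 2 and 3 members) and a granzyme inhibitor, Ccl4 and Xcl1, both chemokines, Klrc1 and Klrc2, the NKG2A and NKG2C receptors, and Fasl, the death ligand. Tbx21 was at 99.4 CPM against 13.1 for WT SC, 63.9 against 4.40 for KO SC and 229 against 31.8 for WT IP. Cxcr3, Lgals1, Ahnak, Plek and Cobll1 were also among the 15 highest. The 10 lowest held Ramp1 and Ramp3, partners of neuropeptide and adrenomedullin receptors, Plaur, Igf1r, the IGF1 receptor, Patj, Ext1, Sgms1, Inpp4b, Cpm and Dusp10. Ramp1 was at 3.55 CPM in members against 46.2 for WT SC, 1.73 against 46.0 for KO SC and 0 against 106 for WT IP.

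The first comparison asked how members of visceral and subcutaneous fat differed. For gene comparisons, member UMIs were summed per library and divided by the members' total, as CPM, 0.5 UMI was added, and a gene was compared where the pair of libraries held 20 or more of its UMIs. A gene is counted as higher or lower where the ratio reached 2-fold. Of 3517 genes in WT, 9.64% were higher and 4.21% lower in IP than in SC. Of 5043 genes in KO, 22.9% were higher and 5.18% lower, and without the pair of KO IP members 17.5% of 4309 were higher and 5.41% lower. The median of all genes was itself 0.15 above 0 on the log2 scale in WT and 0.41 in KO, or 0.37 without the pair. Scaling by the median of ratios gave 239 higher and 199 lower genes in WT and 610 and 549 in KO, or 367 and 453 without the pair, in place of 339 and 148, 1155 and 261, and 753 and 233.

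Genes of naive and recirculating T cells were lower in IP members of both genotypes. Of 11 compared, 5 were lower and none higher in WT, with a median log2 ratio of -0.93. In KO 8 of 11 were lower and none higher, with a median of -1.94, and 6 of 11 with -1.25 without the pair. Satb1, a chromatin organiser of T cells (chromosome 17, 51736187 to 51833290, minus strand), had 413 UMIs in 18 members of WT SC, 737 in 48 of KO SC, 55 in 10 of WT IP and 37 in 9 of KO IP. Its log2 ratio of IP to SC was -2.35 (-2.79 to -1.95) in WT and -3.22 (-3.76 to -2.76) in KO, or -2.49 without the pair. Both SC libraries were thus well above both IP libraries, in UMIs and in members with a UMI.

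Ccr7, the receptor that brings T cells into lymph nodes, had 106 UMIs in WT and 149 in KO of SC, and 17 in WT and 0 in KO of IP. Its log2 ratio was -2.05 (-2.92 to -1.34) in WT. In KO the level in IP was at least 4.56 lower on the log2 scale when 0 is read as up to 3 UMIs, and at least 3.62 lower without the pair. Lef1, a naive and memory factor of the Wnt pathway, was at 572, 732, 260 and 160 CPM and its ratios were -1.13 (-1.62 to -0.67) and -2.18 (-2.67 to -1.74), or -1.79 without the pair. The order of the libraries was the same for Ccr7 and Lef1 within each genotype, with SC above IP.

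Klf2, which switches on egress from tissue, was lower in WT IP than in WT SC, by a log2 ratio of -1.54 (-2.11 to -1.04). Il7r, the IL-7 receptor of long-lived T cells, was at 543 CPM in WT and 705 in KO of SC, and 359 in WT and 182 in KO of IP, with a KO ratio of -1.94 (-2.41 to -1.53) and -1.25 without the pair. In KO, S1pr1, the egress receptor, had a ratio of -1.50 (-2.37 to -0.79), Bach2, a repressor of effector genes, -1.48 (-1.80 to -1.17) and Dapl1 -2.53 (-5.07 to -1.09). Without the pair S1pr1 stood at -0.74 and Bach2 at -0.94, short of 2-fold, and Dapl1 at -1.59. Tcf7, the memory and naive factor TCF1, was seen in 19, 42, 14 and 15 members and did not reach 2-fold in either genotype.

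After thinning, Ccr7 was seen in 29.2% (12.6 to 51.1) of members in WT and 30% (17.9 to 44.6) in KO of SC, and in 13.6% (2.91 to 34.9) in WT and 0 of 23 in KO of IP. Stromal cells of the same libraries, which should lack it, had a UMI in 0 to 1.12%. Lef1 or Satb1 was seen in 70.8%, 94.0%, 45.5% and 43.5% of members, against 1.42% to 4.31% of stromal cells. At equal depth the KO SC and KO IP intervals were apart for Ccr7 and for Lef1 or Satb1, while the WT SC and WT IP intervals overlapped.

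Granzymes moved the other way. Gzmk, the granzyme of tissue memory cells (chromosome 13, 113171608 to 113225908, minus strand), had 12 UMIs in 3 members of WT SC, 8 in 6 of KO SC, 49 in 16 of WT IP and 54 in 11 of KO IP. That is 42.6, 13.8, 255 and 197 CPM, and 202 CPM without the pair. The IP to SC log2 ratio was 2.54 (1.65 to 3.63) in WT and 3.76 (2.75 to 5.11) in KO, or 3.81 without the pair. In KO IP, 25 of the 54 UMIs lay in 1 cell. At equal depth Gzmk was seen in 4.17% (0.11 to 21.1) of members in WT SC and 6.0% (1.25 to 16.5) in KO SC. In IP the shares were 36.4% (17.2 to 59.3) in WT and 17.4% (4.95 to 38.8) in KO. The IP and SC intervals of these shares overlapped in both genotypes. Gzmb, the granzyme of effector cells, was at 60.4, 34.5, 167 and 229 CPM, with ratios of 1.44 (0.57 to 2.40) in WT and 2.71 (1.99 to 3.54) in KO. The WT ratio of Gzmb rested on members with γδ UMIs and was -0.06 without them.

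Gzma was carried by few cells. It had 219 UMIs in a single member of WT SC, 53 in 2 of KO SC, 72 in 3 of WT IP and 206 in 8 of KO IP. The log2 ratio of -1.05 (-1.46 to -0.66) in WT came from that one SC cell and was 7.13 once cycling members (at least 5 Mki67 and Top2a UMIs), of which it was one, were left out. In KO the ratio was 3.02 (2.59 to 3.50), or 3.53 without the pair. At equal depth, Gzmk, Gzmb or Gzma was seen in 12.5% (2.66 to 32.4) of members in WT and 10.0% (3.33 to 21.8) in KO of SC, and in 50% (28.2 to 71.8) in WT and 47.8% (26.8 to 69.4) in KO of IP. The KO intervals were apart and the WT intervals overlapped by a few points. B cells had a granzyme UMI in 0 to 0.224% and stromal cells in 0 to 0.862%.

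**Figure D2:**
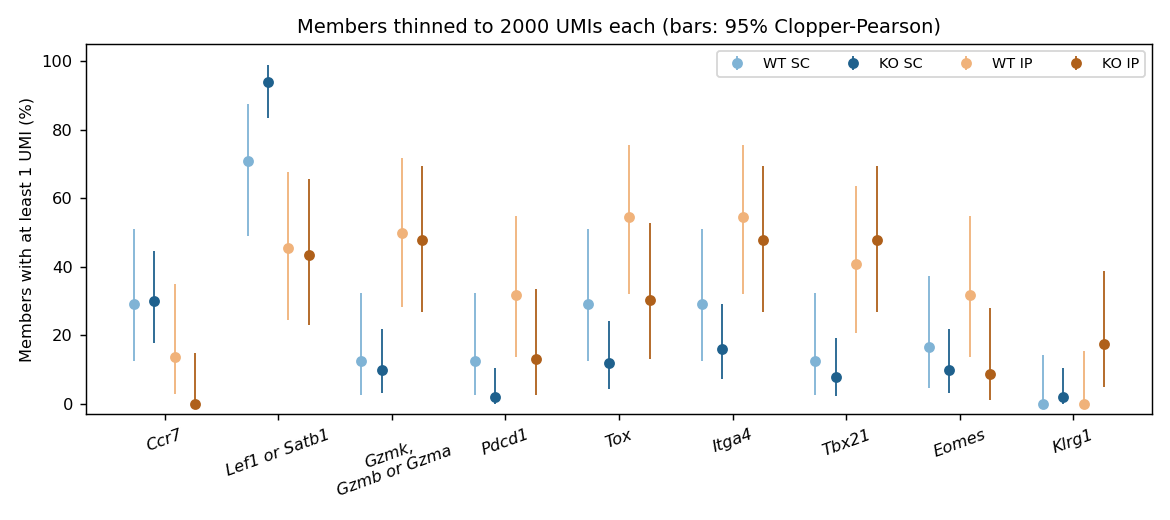
Percent of members with at least 1 UMI of the named gene or genes after each cell was thinned to 2000 UMIs, by library, with exact 95% binomial intervals. Ccr7 goes from 29.2% and 30% in SC to 13.6% and 0% in IP, and the granzymes from 12.5% and 10.0% to 50% and 47.8%.

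The rest of the cytotoxic list followed in part. Of 12 cytotoxic granule genes compared in WT, 4 were higher and 2 lower in IP, with a median of 0.43, and of 13 in KO 6 were higher and none lower, with a median of 0.89, or 0.99 without the pair. Prf1, perforin, was 1.75 (0.54 to 3.20) higher on the log2 scale in WT IP. Fasl was 2.07 (1.20 to 3.09) higher in WT and 1.67 (0.97 to 2.41) in KO, or 2.39 without the pair. Nkg7 was at 1112, 577, 1691 and 1227 CPM and reached 2-fold in KO, with 1.09 (0.87 to 1.31), or 1.61 without the pair.

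Among cytokines and chemokines, 2 of 8 genes were higher in WT IP and 4 of 8 in KO IP, with medians of 0.79 and 0.87, and 5 of 7 with a median of 1.52 without the pair. Ccl4, a chemokine of activated T cells, was 1.79 (1.16 to 2.48) higher on the log2 scale in WT and 1.97 (1.26 to 2.75) in KO, or 2.78 without the pair. Ccl3, its neighbour, was 3.36 (1.83 to 5.93) higher in WT from 24 UMIs in 5 members against 3 in 2. Ifng, interferon gamma, was at 142, 31.1, 135 and 120 CPM, with a KO ratio of 1.93 (1.08 to 2.87). Without the pair Ifng was at 223 CPM in KO IP and the ratio was 2.82 (1.96 to 3.76).

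The checkpoint list, which holds receptors and also the nuclear factors Tox and Nr4a2 and the ectoenzyme Entpd1, had the highest median in WT. All 5 genes compared in WT were higher in IP, with a median log2 ratio of 1.87. In KO 5 of 6 were higher with a median of 2.52, or 4 of 5 with 2.67 without the pair. Pdcd1, which encodes PD-1, had 7 UMIs in 4 members of WT SC, 7 in 2 of KO SC, 26 in 11 of WT IP and 34 in 5 of KO IP, of which 21 lay in 1 cell. The log2 ratio was 2.37 (1.20 to 3.89) in WT and 3.28 (2.16 to 4.77) in KO, or 2.86 (1.47 to 4.47) without the pair. Tox, the factor of chronically stimulated T cells, was at 227, 95, 833 and 521 CPM, with ratios of 1.87 (1.45 to 2.31) and 2.45 (2.0 to 2.93). Of its 143 UMIs in KO IP, 56 lay in 1 cell, and the KO ratio was 2.67 without the pair. Tox was seen in 18 of 25, 25 of 50, 15 of 22 and 10 of 23 members. At equal depth the shares were 29.2%, 12.0%, 54.5% and 30.4%, with intervals that overlapped within each genotype.

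Ctla4, a brake on costimulation, was 1.43 (0.85 to 2.04) higher on the log2 scale in WT IP and 1.57 (0.95 to 2.20) in KO IP. Entpd1, the ectonucleotidase CD39, was 2.87 (1.26 to 5.47) higher in WT and 2.58 (1.27 to 4.28) in KO, or 3.35 without the pair, in each case against 3 to 6 UMIs in SC. Nr4a2, induced by receptor signalling, was 1.28 (0.91 to 1.67) higher in WT. Havcr2 (TIM-3) had 34 UMIs in KO IP, 29 of them in 1 cell, against 0 in KO SC. At equal depth Pdcd1 was seen in 12.5% of members in WT and 2.0% in KO of SC, and in 31.8% in WT and 13.0% in KO of IP, and in no stromal or B cell, and these intervals overlapped within each genotype.

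Of 10 effector and memory transcription factors, 5 were higher and none lower in IP in each genotype, with medians of 0.90 in WT and 1.05 in KO, and 6 of 9 with 1.90 without the pair. Tbx21 was at 99.4, 63.9, 229 and 146 CPM and its ratio was 1.19 (0.49 to 1.94) in WT. In KO it was 1.19 (0.51 to 1.87) with all members and 1.93 (1.22 to 2.64) without the pair, where KO IP was at 244 CPM. Bhlhe40, which sustains tissue T cells, was 2.10 (1.16 to 3.21) higher in WT and 2.04 (1.35 to 2.77) in KO, and Runx3, the CD8 lineage factor, 1.03 (0.50 to 1.57) higher in WT. Zeb2, which works with T-bet in terminal effectors, was 3.56 (2.68 to 4.69) higher in KO IP, and Id2, an effector factor, 1.63 (1.16 to 2.12), or 2.51 without the pair. Irf8, better known from myeloid and B cells, was 3.81 (2.34 to 6.36) higher in WT IP from 33 UMIs in 5 members against 3. Eomes was at 85.2, 62.2, 146 and 83.7 CPM, and its intervals overlapped between the depots of KO.

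Killer lectin receptors, which NK cells and memory CD8 T cells share, were higher in 5 of 6 in WT IP with a median of 1.39. In KO it was 1 of 5 with a median of 0.35, and 4 of 5 with 1.22 without the pair. Klrk1 (NKG2D), which reads stress ligands, was at 53.3 CPM in WT and 161 in KO of SC, and 375 in WT and 291 in KO of IP (529 without the pair), with a WT ratio of 2.78 (2.0 to 3.72). Klrc1 was 1.71 (0.92 to 2.59) higher in WT IP and Klre1 1.59 (0.35 to 3.06). Klrc2 stood at 1.19 (0.37 to 2.07), which became -0.22 when each cell was weighted equally.

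Adhesion and activation genes were higher in IP mostly in KO. In WT 3 of 16 were higher and 1 lower in IP, with a median of 0.41. In KO 13 of 17 were higher and none lower, with a median of 1.78, or 10 of 16 with 1.34 without the pair. Itga4, the integrin chain that binds VCAM-1 on vessels, was at 231, 60.5, 526 and 411 CPM, with ratios of 1.18 (0.72 to 1.66) in WT and 2.75 (2.21 to 3.36) in KO. Its partner Itgb1 was 2.13 (1.68 to 2.61) higher in KO, the calcium-binding S100a4 3.03 (2.57 to 3.54) and the galectin Lgals1 2.82 (2.55 to 3.11). Anxa1, a regulator of inflammation, had 32 UMIs in KO IP and 1 in KO SC. Of the 32, 21 lay in the member with stromal marker UMIs, and 11 UMIs in 7 members were left without the pair. Ly6c2, a memory marker, was lower in WT IP, with -1.40 (-1.89 to -0.96). At equal depth Itga4 was seen in 29.2%, 16.0%, 54.5% and 47.8% of members, in 25% to 34.8% of B cells, which express it, and in no stromal cell.

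**Figure D3:**
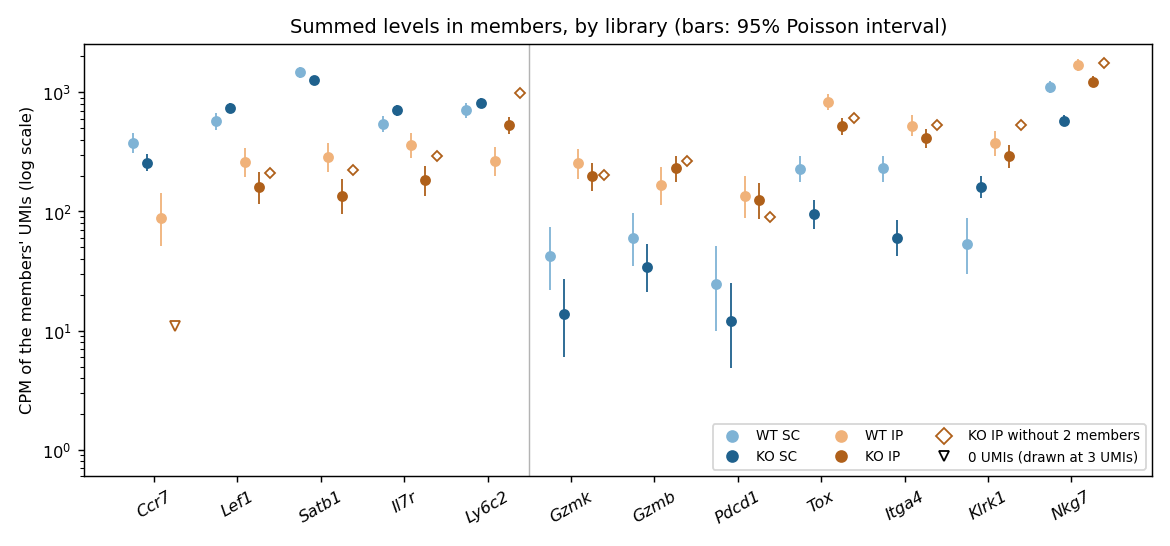
Levels of selected genes in the members, as CPM of the members' UMIs in each library on a log scale, with exact 95% Poisson intervals, open diamonds for KO IP without the pair of members, and a triangle where 0 UMIs are drawn at 3. Ccr7 and Satb1 lie lower in the IP libraries and Gzmk, Pdcd1, Tox and Itga4 higher.

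Of the other lists, tissue residency had 1 of 5 genes higher in WT IP (median 0.83) and 1 higher and 1 lower of 5 in KO IP (0.24, or 0.95 without the pair). Rgs1, a brake on chemokine signalling, was 1.75 (1.28 to 2.26) higher in WT. The textbook residency genes were scarce, with Itgae, the integrin CD103, in 10 of 120 members, Itga1 in 14 and Zfp683 (Hobit) in 1, while Cd69 was in 88 and Cxcr6 in 35. Costimulation had 2 of 8 higher in WT (0.56) and 2 higher and 1 lower of 9 in KO (-0.07). Cd226, an activating partner of TIGIT, was 1.95 (1.03 to 3.02) higher in WT IP and 2.85 (2.25 to 3.53) in KO IP. Chemokine and egress receptors had 1 higher and 1 lower of 7 in WT (0.39) and 4 and 2 of 8 in KO (0.52), with Cxcr3 1.65 (0.69 to 2.67) and Ccr2, the receptor for CCL2, 2.34 (1.41 to 3.43) higher in KO IP.

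The remaining lists had few genes past 2-fold in WT. In WT and KO in turn, the T cell receptor complex had 0 and 2 of 17 genes higher (medians 0.11 and 0.26, which change sign to -0.02 and -0.13 with median of ratios scaling) and cytokine receptors 1 of 10 higher, and 2 higher and 2 lower of 10 (-0.11 and -0.44). Interferon-stimulated genes had 1 of 4 higher, and 1 higher and 2 lower of 6 (0.11 and -0.54), hypoxia and HIF1 targets 1 of 7 and 2 of 8 higher (0.36 and 0.59) and senescence regulators 0 of 8 and 2 of 9 (0.06 and 0.50). Mitochondrially encoded OXPHOS genes had 1 of 12 and 0 of 12 higher (-0.39 and -0.58), and dissociation and immediate early genes 2 of 16 and 4 of 16 (-0.02 and 0.18). Glycolysis had 0 of 10 and 7 of 13 higher (-0.04 and 1.06), and proliferation 0 of 10 and 11 of 12 (0.23 and 3.64). Without the pair of KO IP members, glycolysis had 0 of 11 higher and proliferation 2 of 6. The T cell receptor complex then had 3 of 17 higher (0.62, or 0.29 with median of ratios scaling) and senescence regulators 3 of 9 (0.87). Interferon-stimulated genes had 1 higher and 0 lower of 6 (-0.06), and immediate early genes 1 higher and 1 lower of 16 (0.19). Cytokine receptors had 2 higher and 1 lower of 9 (-0.003), hypoxia and HIF1 targets 2 of 8 higher (0.44) and OXPHOS 0 of 12 (-0.66).

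**Figure D4:**
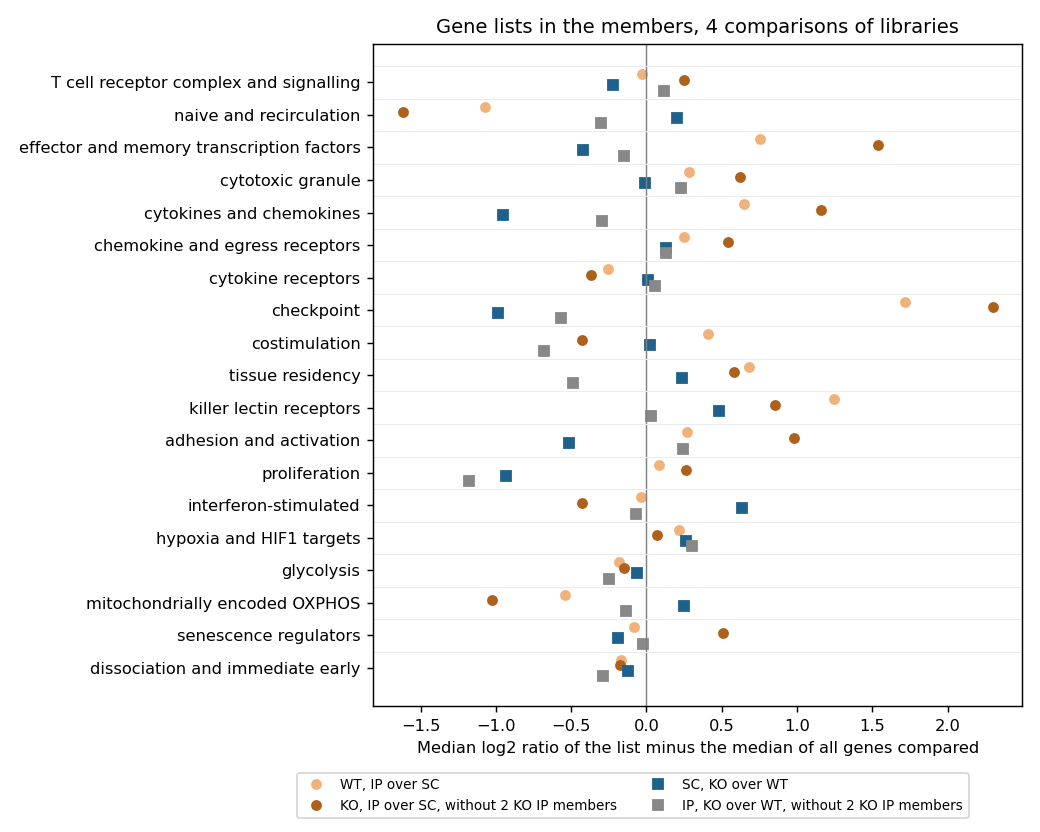
Median log2 ratio of each gene list in the members minus the median of all genes compared, as circles for IP over SC and squares for KO over WT, with KO IP taken without the pair of members. For IP over SC of WT, checkpoint, lectin receptor and effector factor lists lie at 1.72, 1.25 and 0.75 and the naive list at -1.07, and for KO the naive list lies at -1.62.

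The genes with the firmest ratios in each direction gave the same picture for the SC side. Satb1, Yes1, a Src family kinase, and Rgs10, a brake on G protein signalling, were among the 5 lowest in IP in both genotypes, with Rgs10 at -2.76 (-4.56 to -1.57) in WT and -3.39 (-5.17 to -2.26) in KO, or -2.74 without the pair. Heatr5a and the histone gene Hist1h1b, whose 67 UMIs lay in 1 cell, completed the WT list, and Ccr7 was among the lowest in KO. The highest in WT IP were Irf8, Klrk1, Runx1, a T cell transcription factor at 2.44 (1.90 to 3.04), Zfp652 and Sgcz, whose 33 UMIs lay in 1 cell. In KO IP the highest were Dcn, Gsn and Sparc, genes of stromal cells, and the cycling genes Mki67 and Hist1h1b, and without the pair Gzma, Lmnb1, a nuclear lamin, Lgals3, a galectin, Hip1 and Zeb2. The stromal genes among these lay in 1 to 6 members each.

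Within single members, Ccr7 and granzymes were mostly carried by different cells. Over all 120 members, 52 had Ccr7 without a granzyme, 41 a granzyme without Ccr7, 6 had both and 21 neither. The depth and the library differ between these cells, so the counts are a description. Those with both numbered 3 for WT IP and 3 for KO SC, with none for the other libraries. Gzmk and Pdcd1 were seen together in 18 members, of 36 with Gzmk and 22 with Pdcd1, and Pdcd1 came with Tox in 19 of 22. Of the 36 members with Gzmk, 31 had Itga4 and 23 had Eomes. Gzmb and Gzmk overlapped less, in 17 of 27 members with Gzmb, and 9 of the 11 members with Klrg1 had Gzmb. Eomes and Tbx21 were seen together in 35 members.

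Of the same 120 members, 36 carried Ikzf2 (Helios), of which 19 also had a gene of the Klra (Ly49) family, which 39 members had. CD8 T cells with both are known as a regulatory kind. They were 4 of 25 members in WT and 9 of 50 in KO of SC, and 4 of 22 in WT and 2 of 23 in KO of IP. These counts are too small to put the libraries in an order.

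T cell receptor variable genes were sparse in these reads from the transcript end. A Trbv gene was seen in 5, 8, 2 and 4 members of WT SC, KO SC, WT IP and KO IP, and a Trav gene in 9, 4, 5 and 6. No variable gene was seen in more than 3 members of a library, and Trav1 in KO IP was the one seen in 3. An expanded clone could not be read at this coverage.

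T-box factors bind a short half-site, written GGTGTGA or, on the other strand, TCACACC. It was searched in the 250 bases upstream of the start that RefSeq gives (GRCm38.p6), where 3.33% of 32851 promoters held it. Among the members' marker genes with an entry, Nkg7 and Gzmk held it, and Gzmb, Eomes, Cxcr3, Satb1, Klrc1, Klrk1, Fasl, Ifng and Prf1 did not. The Gzmk promoter is shown because the summed Gzmk level was higher in IP than in SC members of both genotypes. It lies at chr13:113180966-113181215 on the minus strand, where a longer GENCODE transcript of the gene also passes, and the capitals mark the half-site. The match is a description of letters and not of binding.
Gzmk: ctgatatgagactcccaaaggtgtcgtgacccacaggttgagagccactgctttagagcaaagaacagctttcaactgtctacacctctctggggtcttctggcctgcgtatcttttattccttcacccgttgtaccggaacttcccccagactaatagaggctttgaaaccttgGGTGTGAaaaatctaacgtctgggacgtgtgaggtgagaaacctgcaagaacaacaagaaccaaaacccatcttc

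The second comparison asked how members of KO and WT mice differed within a depot. In SC, 4698 genes were compared, and 2.77% were higher and 6.85% lower in KO, with a median of -0.16 over all genes. Median of ratios scaling turned the 130 higher and 322 lower genes into 191 and 219. The lists that lay lowest in KO SC were the checkpoint list (3 of 4 lower, median -1.15), cytokines and chemokines (4 of 7, -1.12), proliferation (4 of 8, -1.10), adhesion and activation (7 of 16, -0.68) and effector and memory factors (3 of 10, -0.58). None of these lists had a higher gene. With cycling members left out the proliferation median was -0.13 over 6 genes.

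S100a4 had 197 UMIs in 12 members of WT SC and 46 in 8 of KO SC, a log2 ratio of -3.13 (-3.63 to -2.67). Lgals1, at 881 and 244 CPM, stood at -1.85 (-2.16 to -1.55), with 140 of its 248 WT UMIs in 1 cell. Itga4 stood at -1.92 (-2.57 to -1.32), S100a6 at -1.23 (-1.55 to -0.92), and Cxcr3 at -1.42 (-2.47 to -0.42). Each of these genes was seen in a smaller share of KO SC members before thinning, and Itga4 at equal depth was seen in 29.2% (12.6 to 51.1) of WT and 16.0% (7.17 to 29.1) of KO members, which overlap.

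Of the effector genes, Ifng had 40 UMIs in 6 WT SC members and 18 in 12 KO SC members, with a log2 ratio of -2.17 (-3.08 to -1.36). Gzmk stood at -1.60 (-3.12 to -0.21) and Gzma at -3.08 (-3.55 to -2.65). The Gzma value came from 1 WT cell and was 5.57 once cycling members were left out. Tox was lower at -1.26 (-1.81 to -0.72), and Ikzf2 at -1.49 (-1.84 to -1.14) from 164 UMIs in 7 WT members and 120 in 16 KO members. Hist1h1b and Birc5, genes of dividing cells, were seen in a single WT SC cell and Top2a in 2, while Stmn1 had 58 UMIs in 8 WT members and 27 in 17 KO members, at -2.13 (-2.86 to -1.46). Gm11290 and Hspa1b, a heat shock gene at -2.52 (-3.28 to -1.85), were lower as well.

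Higher in KO SC were Klrk1, at 1.55 (0.80 to 2.49) from 93 UMIs in 21 members against 15 in 6, and Irf7, an interferon-induced factor, at 2.13 (0.40 to 5.55) from 22 UMIs against 2. Klf4, a quiescence factor (chromosome 4, 55527143 to 55532466, minus strand), had 36 UMIs in 19 of 50 KO SC members and 0 in WT SC, a log2 ratio of at least 2.55. Auts2 and Slc35d1 completed the highest genes with 2 UMIs each in WT. Gm10260 (chromosome 13, 97760072 to 97760632) had 306 UMIs in KO SC against 2, and Gm11361 (chromosome 13, 28257528 to 28258134) 301 against 2. Both resemble the ribosomal gene Rps18, so how reads were divided between near-identical copies makes their values uncertain. Whether all libraries were counted with 1 reference and the same settings is not given in the sources used here, which bears on every KO to WT ratio.

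Naive and recirculation genes differed little between genotypes in SC, with 0 of 11 higher, 1 lower and a median of 0.04. Cytotoxic granule genes had 2 of 13 lower (median -0.17), the T cell receptor complex 1 of 17 (-0.39), chemokine and egress receptors 2 of 7 (-0.03), cytokine receptors 1 of 9 (-0.15) and costimulation 1 of 8 (-0.14). Killer lectin receptors had 1 higher and 2 lower of 7 (0.32), tissue residency none of 5 (0.07), interferon-stimulated genes 1 higher of 5 (0.47) and hypoxia and HIF1 targets none of 9 (0.10). Glycolysis had 1 lower of 11 (-0.22), mitochondrially encoded OXPHOS 1 higher of 13 (0.09), senescence regulators 1 lower of 9 (-0.35) and dissociation and immediate early genes 2 lower of 16 (-0.29). Members of WT SC included 1 cell with 904 UMIs, and 1 cycling member.

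In IP, 3882 genes were compared with all members, and 12.4% were higher and 6.18% lower in KO. Without the pair of KO IP members, 4.56% of 2896 were higher and 5.39% lower, so the excess of higher genes came with those 2 cells. Proliferation had 6 of 13 genes higher with a median of 0.95, and without the pair none of 9 was higher, 5 were lower and the median was -1.17. Mki67 moved from 1.90 to -4.94 and Top2a, a topoisomerase of dividing cells, from 2.23 to -2.20. The Mki67 value was against 0 UMIs in KO IP, and is -2.32 or lower when 0 is read as up to 3. Glycolysis moved from a median of 0.59 to -0.23 and lost all 4 of its higher genes. The highest genes with all members were Gsn, Dcn, Serpinh1 and Tnfaip6, stromal genes found in 1 to 6 members, and Gm10260, with 71 UMIs against 0.

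A few effector genes were higher in KO IP. Zeb2 had 13 UMIs in 6 members of WT IP and 64 in 16 of KO IP, a log2 ratio of 1.74 (0.91 to 2.77), or 2.07 (1.19 to 3.13) without the pair. Klrg1 had 2 UMIs in WT IP and 18 in 8 members of KO IP, at 2.37 (0.59 to 5.81), and at equal depth it was seen in 17.4% (4.95 to 38.8) of KO IP members and 0 of 22 in WT IP, which allows up to 13.6%. Il12rb2, the IL-12 receptor chain, stood at 1.84 (0.81 to 3.21), or 2.71 (1.67 to 4.08) without the pair, and Ccr2 at 1.81 (0.62 to 3.45) or 1.85. Ly6c2 was at 532 CPM in KO IP against 265 in WT IP and H2-D1, a class I gene, at 3645 against 1889, both short of 2-fold, and without the pair they were at 988 and 5282 CPM in KO IP. These Klrg1 shares overlap, so a difference in the share of members was not detectable at this depth. Anxa1, at 2.70 (1.22 to 5.25), and Havcr2, at 2.13 (0.89 to 3.96), were higher with all members. Without the pair, Klrg1 kept 14 UMIs in 7 members, Anxa1 11 in 7 and Havcr2 5 in 3, which left too few UMIs for a ratio.

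Lower in KO IP were Irf8, with 1 UMI against 33, at -5.00 (-10.91 to -2.98), and Ccl3, with 1 against 24, at -4.54 (-10.46 to -2.48). Isg15, an interferon-induced ubiquitin-like protein, stood at -2.84 (-4.68 to -1.55), Nr4a2 at -1.56 (-1.98 to -1.16) and Dapl1 at -2.92 (-5.51 to -1.32). Without the pair they stood at -4.06, -3.61, -1.90, -1.02 and -1.98. The RNA 2610035D17Rik, with 5 UMIs against 46, and Sgcz, with 0 against 33 in 1 cell, were also among the lowest, and Stat5b, a factor of cytokine signalling, joined them without the pair, with 9 UMIs against 53.

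The lists in IP, with all members and then without the pair, had medians of -0.76 and -0.29 for naive and recirculation genes (3 of 9 and 1 of 9 lower) and -0.36 and -0.13 for effector factors. Cytotoxic granule genes stood at 0.03 and 0.24, cytokines and chemokines at -0.86 and -0.28, the checkpoint list at -0.43 and -0.55 and killer lectin receptors at -0.60 and 0.04. Adhesion and activation stood at 0.47 and 0.26, costimulation at -0.93 and -0.66, tissue residency at -0.73 and -0.47, and interferon-stimulated genes at -0.75 and -0.06. Chemokine and egress receptors stood at -0.33 and 0.15, hypoxia and HIF1 targets at 0.46 and 0.32, mitochondrially encoded OXPHOS at -0.13 and -0.12, senescence regulators at -0.28 and -0.01 and dissociation genes at -0.58 and -0.28. The T cell receptor complex moved from -0.16 to 0.13 and cytokine receptors from -0.45 to 0.08. None of the lists in this paragraph had more than 3 of its genes past 2-fold in one direction, except cytokines and chemokines, with 4 of 8 lower and then 1.

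GFP transcripts, the sign that the recombinase had acted in a cell or its ancestors, were common in members. The GFP feature was seen in 21 of 25 members of WT SC (84.0%, 63.9 to 95.5), 28 of 50 of KO SC (56.0%, 41.3 to 70.0), 14 of 22 of WT IP (63.6%, 40.7 to 82.8) and 6 of 23 of KO IP (26.1%, 10.2 to 48.4). Its level was 2003, 815, 1733 and 229 CPM, and 438 CPM in KO IP without the pair. At equal depth the shares were 79.2%, 48.0%, 63.6% and 21.7%, so the WT library was above the KO library in both depots, with intervals that overlap.

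The other lymphocytes of the same libraries carried GFP too. At equal depth it was seen in 61.8%, 32.6% and 50% of CD8 T cells with fewer than 3 Ccl5 UMIs in WT SC, KO SC and WT IP, and in 1 of 4 in KO IP. In B cells the shares were 40.8%, 23.1%, 10.0% and 13.0%. In KO IP the members' interval holds the B cell share, so the members could not be told from B cells by GFP there. The unswitched Tdtomato feature was seen in 0, 4, 1 and 4 members. The endothelial markers Cdh5, Kdr and Cldn5 were at 0 in these same members.

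**Figure D5:**
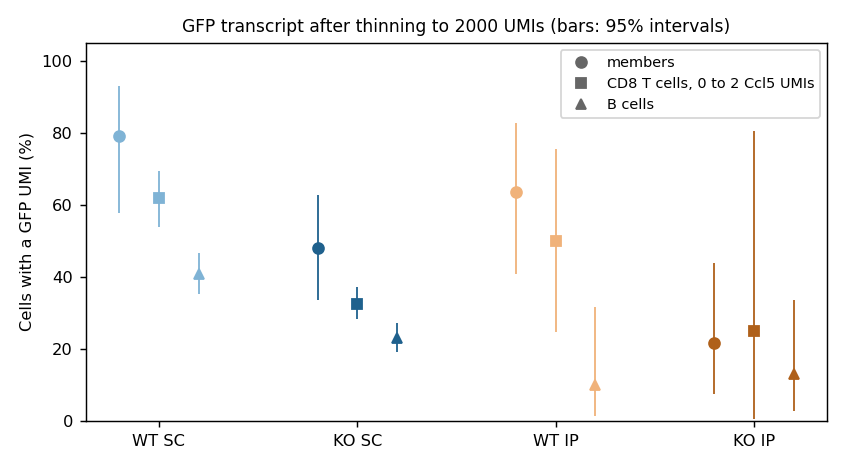
Percent of cells with a GFP UMI after thinning to 2000 UMIs, for members, other CD8 T cells and B cells of each library, with exact 95% binomial intervals. Members are at 79.2% in WT and 48.0% in KO of SC, and 63.6% in WT and 21.7% in KO of IP.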

How the data were processed

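The authors deposited raw UMI counts per gene and barcode of Chromium 3′ libraries, and the file headers name Cell Ranger 7.0.0. The submitters' processing notes also name STAR 2.6 and mm10. The rule for calling cells and the use of intronic reads are not given in the sources used here. Each of the 4 libraries listed 32290 features, and 1 library stood for each group.

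Barcodes were filtered and members chosen by UMI thresholds as described above, with no clustering and no doublet removal beyond the Cd4 and Cd79a gates. The members, gene lists and comparisons were chosen with earlier results of these data known. Member UMIs were summed per library. Shares carry Clopper-Pearson, levels Poisson and ratios conditional binomial exact intervals at 95%. A count of 0 was read as up to 3. UMIs of 1 library do not cover differences between mice, gene intervals do not cover those between cells, and no test or p-value was possible.

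Named genes were those of the 19 role lists with the most UMIs (up to 6 a list) or with a ratio past 2-fold whose interval leaves out 0, the 5 highest and 5 lowest per comparison among genes with at least 30 UMIs, ordered by the interval bound nearest 0, the 15 highest and 10 lowest against other CD8 T cells, Tert, the reporters and 10 marker lists. Not every gene that met the list rule is named. Some genes that met these rules are not reported here. Ribosomal, mitochondrial, haemoglobin, immunoglobulin, receptor variable and sex genes were kept out of the rankings. Gene positions are from GENCODE M21.

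The scripts were tested on simulated data. They used scanpy 1.11.5, matplotlib 3.10.9, pandas 2.3.3, scipy 1.17.1 and numpy 2.4.6 in Python 3.11.15. Alternatives covered the cell filters, the Ccl5 and CD3 thresholds, Scrublet, thinning, scaling, cell weights, added UMI, minimum UMIs and the denominator.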

Additional observations from a re-analysis of the deposited data

Results flagged for a closer look

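For 10 genes the KO to WT ratio of members went one way in SC and the other way in IP, with intervals on opposite sides of 0, in IP also without the pair of KO IP members that stood apart. In all, 4698 genes were compared in SC and 3882 in IP, and the number compared in both is not given here. The difference between the depots was not tested, since each ratio compares single libraries. The values below are the SC log2 ratio minus the IP log2 ratio, with all members of KO IP.

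Of genes linked to activated T cells, Gzma differed by -4.07, Zeb2 by -3.12, Lgals3 by -3.29, Lgals1 by -2.49, S100a6 by -1.80, Itgb1 by -1.63 and Crip1 by -1.07, in each case lower in KO in SC and higher in KO in IP. The Gzma value in SC rests on 219 UMIs of 1 WT cell, and 140 of the 248 Lgals1 UMIs of WT SC lay in 1 cell. Zeb2 was seen in 4, 5, 6 and 16 members of WT SC, KO SC, WT IP and KO IP, with 10 of its 14 UMIs of WT SC in 1 cell, and 16 of the 19 Lgals3 UMIs of WT SC lay in 1 cell. Lmnb1, a nuclear lamin, differed by -4.98, with 87 of its 121 KO IP UMIs in 1 cell, and Klf2 by -1.10. Zfp652 went the other way with 3.23, and 35 of its 47 UMIs in WT IP lay in 1 cell. In KO IP, 1 cell of the pair held 216 of 475 Lgals1 UMIs and 173 of 488 Crip1 UMIs. The other held 116 of 403 S100a6 UMIs and 40 of 91 Klf2 UMIs. Without the pair the IP ratios were 0.36 for Lgals1, 0.33 for Crip1, 0.49 for S100a6, 0.72 for Klf2 and 0.81 for Lmnb1.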

How the results depend on the processing

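Over the alternatives, 89 of the share ratios moved by less than their counting interval and 3 did not. The IP to SC log2 ratio of the members' share of kept cells was 0.80 in KO. It was 1.56 when cells were thinned to 2000 UMIs first, shallower cells were left out and the gate asked for at least 1 Ccl5 UMI. With T cells as the base it was 2.11 in KO and 1.64 in WT. The share of CD8 T cells kept a ratio of 1.85 to 2.16 in WT and 2.97 to 3.69 in KO. Counts of genes past 2-fold followed the minimum of UMIs. For KO to WT in SC, KO to WT in IP, IP to SC in WT and IP to SC in KO they were 4050, 5844, 5072 and 6107 with no minimum and 102, 212, 137 and 594 with at least 50 UMIs. In IP, KO to WT, 383 genes were past 2-fold without cycling members and 288 without the pair of KO IP members, against 720. These and the choices named below as left out were added after seeing the data.

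Of the list medians, 1189 did not move beyond their limit, 54 moved and 10 changed sign. The T cell receptor list turned to -0.022 (IP to SC, WT) and -0.13 (IP to SC, KO) with median of ratios scaling, to 0.079 (KO to WT, IP) with cells weighted equally, to 0.10 (KO to WT, IP) and -0.019 (IP to SC, WT) with cycling members left out and to 0.13 (KO to WT, IP) without the pair. In KO to WT of IP, proliferation turned to -0.40 with equal weights and -1.17 without the pair, cytokine receptors to 0.075 and glycolysis to -0.23 without the pair. Of single genes, 1597 values held, 63 moved and 7 changed sign. Mki67 (KO to WT, IP) was -0.63 with equal weights and -4.94 without the pair, Top2a -2.20 without the pair and Klrc2 (IP to SC, WT) -0.22 with equal weights. Gzma without cycling members was 5.57 (KO to WT, SC) and 7.13 (IP to SC, WT), and Gzmb (IP to SC, WT) -0.058 without members carrying γδ UMIs. Both Gzma values were against no UMI in WT SC, so the UMI fraction added sets their size.

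Thinning before the gates was run with at least 1 Ccl5 UMI asked for. It left 12, 18, 10 and 14 members in WT SC, KO SC, WT IP and KO IP. Most libraries were thus under the 15 members asked for, so no gene comparison was made under this thinning. No paired analysis was possible because each group had 1 library. A sum over 22 to 50 cells follows its deepest cells, and genes under about 20 UMIs could not be compared.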
